A study of Mus musculus with 30 samples.

Results

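The genes described here encode the proteins of the cytosolic ribosome, measured by poly(A) RNA sequencing in mouse spleen and lymph node. Members were the rows whose symbol begins with Rpl, Rps or Rplp followed by a number, without the processed pseudogene rows marked -ps and without the Rps6k kinases. This gave 88 of the 24957 rows in each table, 54 named for the large subunit and 34 for the small one. One of them, Rps19bp1, encodes a protein that binds a ribosomal protein and is no part of the ribosome, and a few others are retrogenes or tissue-restricted relatives of a main gene.

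The ribosome joins a small subunit, which reads the mRNA, to a large subunit, which forms the peptide bond, and each protein gene supplies 1 chain that is needed in step with the others. Their mRNAs are among the most abundant in proliferating and immune cells, and most begin with a short run of C and T bases, the terminal oligopyrimidine (TOP) motif, through which the mTOR pathway and LARP1 set their translation. A few members have relatives that can take their place in the ribosome, among them Rps27l for Rps27, Rpl22l1 for Rpl22, Rpl36al for Rpl36a and Rpl39l for Rpl39.

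The series compared wild-type (WT, strain FVB), Pad2-/- and Pad4-/- mice, each knockout lacking 1 of the peptidylarginine deiminases (Padi2 or Padi4), which turn arginine in proteins into citrulline. Spleens carried the agent label control (titled naive) or imiquimod, a TLR7 agonist, with 3 libraries in each of 6 groups, and lymph nodes came from imiquimod mice of the 3 genotypes, with 4 libraries in each. The extraction protocol speaks of imiquimod-treated mice throughout, whereas the agent labels mark 9 spleens as controls, and the labels were followed. The labels give no age, dose or time, no background strain for the knockouts, and nowhere tie a replicate to an animal of its own, and the p-values below therefore measure only the spread between these samples.

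Padi2 stood at 9.77 to 10.5 RPKM (reads scaled by transcript length and by the reads of the library) in WT control spleens and averaged 1.13 RPKM in Pad2-/- ones, and Padi4 averaged 0.122 RPKM in Pad4-/- control spleens against 1.57 RPKM in WT. In lymph node, Padi4 stood at 0.0958 and 0.131 RPKM in replicates 1 and 2 labelled Pad4-/-. It stood at 0.6073 and 1.1703 RPKM in replicates 3 and 4, against 0.679 to 1.05 RPKM in WT. Replicate 4 thus goes against its label, and replicate 3 lies below every WT library but nearer to them than to replicates 1 and 2. No B or T cell marker was listed at 0 in any library, of 12 B cell and 14 T cell markers found in the tables. The depth of the libraries is unknown. In bulk tissue, fewer cells of a type and less RNA per cell cannot be told apart.

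To show what the members share at the transcription start, 30 bases around the annotated start are given for the genes that carry the results below, from RefSeq promoter sequences on build GRCm38.p6, 5′ to 3′ on the gene's strand. The first 15 bases lie before the start and the last 15 follow it. Capitals mark a run of 5 or more C and T bases that covers the first transcribed base or begins within 5 bases of it. Rps27 lies on the minus strand at chr3:90213634-90213663, its retrogene Rps27rt on the minus strand at chr9:114982725-114982754, Rps27l on the plus strand at chr9:66946071-66946100, and Rps2 on the plus strand at chr17:24720048-24720077. Rpl41 lies on the minus strand at chr10:128549154-128549183, Rpl7a on the plus strand at chr2:26910792-26910821, Rpl12 on the plus strand at chr2:32961697-32961726, and Rpl7l1 on the minus strand at chr17:46782642-46782671.
Rps27: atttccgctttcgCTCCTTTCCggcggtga
Rps27rt: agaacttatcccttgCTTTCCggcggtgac
Rps27l: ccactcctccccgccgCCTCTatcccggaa
Rps2: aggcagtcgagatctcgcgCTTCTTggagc
Rpl41: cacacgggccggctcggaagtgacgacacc
Rpl7a: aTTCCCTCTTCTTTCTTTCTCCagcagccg
Rpl12: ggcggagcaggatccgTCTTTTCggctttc
Rpl7l1: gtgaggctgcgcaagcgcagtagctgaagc

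The windows of Rps27 and Rps27rt share an unbroken stretch of 14 bases, which begins at the annotated start in Rps27rt and 1 base after it in Rps27. A run of 5 or more C and T bases at the start was found in 46.3% of the 67 members with a promoter in the table and in 23.7% of all 27025 promoters, and a run of 8 or more in 29.9% and 6.29%. Of the motifs searched on both strands over the 300 bases of each promoter, none of which contains another, CCGGAAG was in 35.8% of members and 9.12% of all, GGGCGG in 58.2% and 35.9%, AAGATGGC in 7.46% and 2.88%, and TATAAA in 10.4% and 14.2%. Among the genes printed, the longest C and T run was that of Rpl7a, with 21 bases that lie mostly before the annotated start, while Rpl41 and Rpl7l1 had none of 5 at the annotated start. These matches are descriptions of the letters only.

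Ribosomal protein mRNAs filled much of the transcriptome in every library. The 88 members held 16.2 to 27.2% of all RPKM in spleen and 23.7 to 31.8% in lymph node, and supplied 55 to 67 and 61 to 67 of the 100 highest genes of a library. In spleen, 47 members averaged 1000 RPKM or more over all libraries, 30 lay between 100 and 1000, 6 between 10 and 100, and 5 under 10. In lymph node these numbers were 56, 22, 5 and 5.

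On the RPKM scale, which is per transcript length, the highest member in both tissues was Rplp1, an acidic protein of the large-subunit stalk that recruits elongation factors, at 3514 RPKM in spleen and 4359 RPKM in lymph node. It was followed by Rpl41, a very short large-subunit peptide, at 2908 and 3903 RPKM, and by Rpl13a, a large-subunit protein, at 2459 and 2954 RPKM. Of the 10 highest members, 9 were the same in the 2 tissues.

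At the low end stood relatives with restricted use. Rpl10l and Rpl39l, known for expression in the testis, averaged 0.0133 and 0.364 RPKM in spleen, and Rpl3l, known from striated muscle, 0.204 RPKM. With Rpl32l at 0.506 and Rps4l at 0.626 RPKM, these 5 did not reach 1 RPKM in 3 spleen libraries and were not tested, which left 83 members in spleen. In lymph node Rps4l was tested as well, at 1.75 to 2.49 RPKM as group means, which made 84.

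Many members have near-identical copies elsewhere in the genome, so how reads were assigned affects their values. In transcripts of 85 members matched to GENCODE M21, a median of 54.5% of all 50-base stretches also occur in another annotated gene, mostly a pseudogene, and in 48 members this share is above 50%. Rps27 shares 98.6% of its stretches with Rps27rt, Rpl7a 81.2% and Rps2 71.3% with other genes, whereas Rps27l shares 22.4% and Rpl7l1 9.19%. The row Rpl34-ps1, a pseudogene, averaged 1150 RPKM in WT control spleens, so that levels of single members in such families are uncertain.

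The median of log2(RPKM + 0.5) over the 88 members gives each library's overall level. It was 10.18, 10.12 and 10.14 in WT control spleens (replicates 1 to 3), 10.14, 10.19 and 9.88 in Pad2-/- controls, and 9.96, 9.96 and 9.97 in Pad4-/- controls. It was 10.20, 10.24 and 10.11 in WT imiquimod spleens, 9.82, 10.22 and 9.83 in Pad2-/- ones, and 10.13, 10.27 and 10.24 in Pad4-/- ones. WT medians overlapped between control and imiquimod, those of Pad4-/- did not, and the Pad2-/- groups each held libraries far apart.

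**Figure D1:**
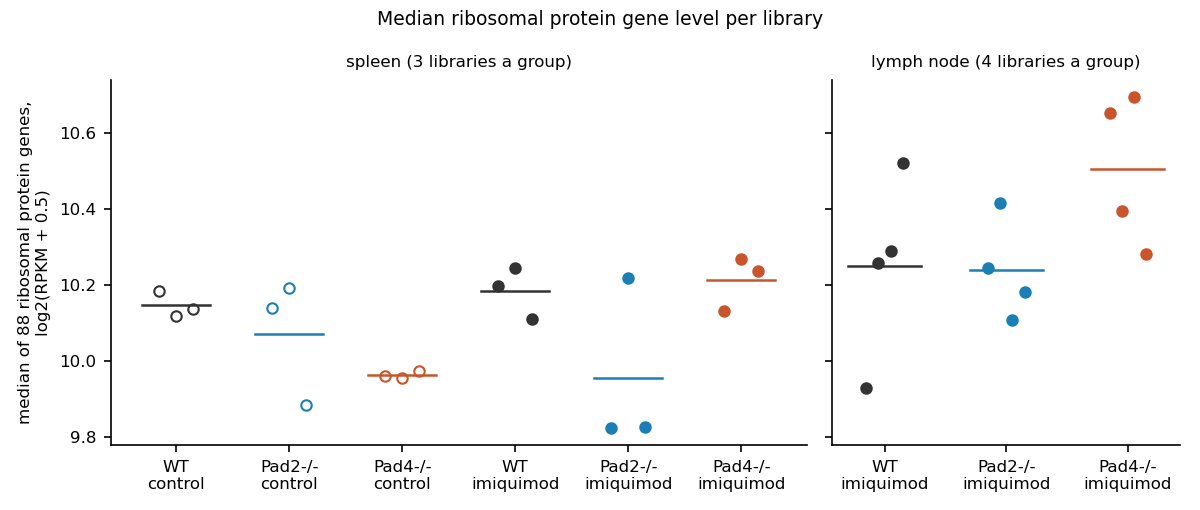
Median log2(RPKM + 0.5) of the 88 ribosomal protein genes in each library (points; open, control; filled, imiquimod), with group means as lines. Pad4-/- control spleens lie at 9.96 to 9.97, all below the Pad4-/- imiquimod spleens at 10.13 to 10.27, and 2 Pad2-/- imiquimod spleens lie at 9.82 and 9.83.

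The 2 low Pad2-/- imiquimod spleens were those rich in haemoglobin mRNA. Haemoglobin genes summed to 102398, 7390 and 90197 RPKM in Pad2-/- imiquimod replicates 1 to 3, against 7650 to 32466 RPKM in WT imiquimod and 1759 to 8660 RPKM in the 9 controls. In Pad4-/- imiquimod replicates 1 to 3 they summed to 58703, 3261 and 10427 RPKM, and the member median of the first, 10.13, was the lowest of that group but above those of Pad4-/- controls. Since RPKM is relative to a library's reads, haemoglobin is given beside the Pad2-/- results below. With haemoglobin genes left out, members held 20.3, 23.3 and 20.2% of RPKM in Pad2-/- imiquimod replicates 1 to 3, and 22.5 to 24.6% in WT imiquimod spleens. Pad2-/- control replicate 3, with a low median of 9.88, had 6892 RPKM of haemoglobin, against 8660 RPKM in control replicate 2, with a median of 10.19. The part of haemoglobin in these medians was not tested. Within groups, members moved together from library to library. The median SD over members was 0.243 on the log2 scale in Pad2-/- imiquimod spleens and fell to 0.0654 once each library's member median was subtracted. In Pad4-/- control spleens, where the library medians were nearly equal, these values were 0.0291 and 0.0316.

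Imiquimod changed the ribosomal protein genes of WT spleen unevenly: 22 rose and 6 fell of 83 (limma on log2(RPKM + 0.5), Benjamini-Hochberg adjusted p under 0.05 over all 11982 genes), where 40.3% of all genes rose and 33.2% fell, 73.5% together. Their median difference was 0.09 on the log2 scale beside 0.06 for all genes, with an interquartile range of -0.11 to 0.29 for members and of -0.45 to 0.69 for all genes. After quantile normalization 8 members rose and 46 fell, as given below for each scaling. As deposited, 71 members lay within 0.5 of no difference. Of the large-subunit members 16 rose and 2 fell of 50, with a median difference of 0.15, and of the small-subunit members 6 rose and 4 fell of 33, with a median of -0.05. Groups did not overlap for 49 members, against 78.1% of all genes, with 36 higher after imiquimod and 13 lower, against 41.8 and 36.3%.

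Several cell type marker lists moved with this comparison. From WT control to WT imiquimod spleens, the summed RPKM of 12 B cell markers went from 3532 to 4017 down to 1138 to 1709, and that of 14 T cell markers from 903 to 932 down to 410 to 507. Summed neutrophil markers (9 genes) went from 715 to 1178 up to 4656 to 22752, mitotic genes (11) from 28.7 to 38.5 up to 422 to 546, and macrophage markers (11) from 156 to 172 up to 1125 to 1715. No marker of these lists was at 0 in a library. Their part in the responses of the ribosomal protein genes, here and in the knockouts, was not tested.

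The member with the largest rise was Rps27l, the relative of Rps27 known in mouse and human as a p53 target. It stood at 35.3, 35.5 and 36.0 RPKM in WT control spleens and at 128.2, 145.7 and 122.8 RPKM in WT imiquimod spleens, with no overlap. Its difference was 1.87 ± 0.12 (SE) on the log2 scale, 3.67-fold (limma adjusted p = 2.8e-09). It rose in Pad2-/- spleens as well, from 39.1, 41.5 and 31.7 RPKM to 117, 107 and 85.2 RPKM (log2 difference 1.44, limma adjusted p = 7.44e-08). In Pad4-/- spleens it rose from 28.6, 30.6 and 30.3 RPKM to 108, 90.3 and 109 RPKM (log2 difference 1.76, limma adjusted p = 9.81e-09). These rises passed the threshold under each of the alternatives tried, with WT differences from 1.49 to 1.93.

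Rps27 itself, a small-subunit protein with a zinc finger, went the other way. It stood at 1007, 907 and 946 RPKM in WT control spleens and at 605, 667 and 469 RPKM in WT imiquimod spleens, a log2 difference of -0.73 ± 0.16 (SE, limma adjusted p = 0.00061). In Pad2-/- spleens it went from 918, 974 and 848 RPKM to 431, 710 and 491 RPKM (log2 difference -0.78, limma adjusted p = 0.000381). In Pad4-/- spleens it went from 838, 845 and 917 RPKM to 586, 670 and 699 RPKM (log2 difference -0.41, limma adjusted p = 0.0274). Control and imiquimod libraries did not overlap in any genotype. The Pad4-/- fall missed the threshold with no filter on low values (limma adjusted p = 0.0598), without control replicate 3 (0.0829) and without imiquimod replicate 1 (0.105). The Pad2-/- fall missed it without the 2 libraries rich in haemoglobin (log2 difference -0.36, limma adjusted p = 0.0694).

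Rps27rt, the retrogene that shares nearly all of its sequence with Rps27, fell likewise, from 1872, 1675 and 1738 RPKM to 1096, 1183 and 868 RPKM in WT (log2 difference -0.76 ± 0.15 (SE), limma adjusted p = 0.000344), by 0.76 in Pad2-/- and by 0.42 in Pad4-/- spleens on the log2 scale. The Pad4-/- fall was lost in the same 3 settings (limma adjusted p = 0.0609, 0.0704 and 0.0922), and the Pad2-/- fall without the haemoglobin-rich libraries (0.0609). The ratio of Rps27 to Rps27rt lay between 0.534 and 0.564 in every spleen library. Set against the Rps27 row alone, which leaves out the higher Rps27rt row, Rps27l amounted to 3.30 to 4.26% in the control spleens of the 3 genotypes. In imiquimod spleens it amounted to 21.2, 21.8 and 26.2% in WT, 27.1, 15.1 and 17.3% in Pad2-/- and 18.5, 13.5 and 15.6% in Pad4-/-.

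Rps2, a small-subunit protein near the mRNA entry channel, went from 1301, 1168 and 1082 RPKM in WT control spleens to 2279, 2258 and 2490 RPKM in imiquimod spleens. The log2 difference was 0.99 ± 0.09 (SE, limma adjusted p = 1.71e-07), and it was 0.72 in Pad2-/- and 0.75 in Pad4-/- spleens, both past the threshold. Every imiquimod spleen of the 3 genotypes stood above every control spleen. Rpl7a, a large-subunit protein with the long C and T run around its start shown above, went from 847, 786 and 791 RPKM to 1236, 1242 and 1344 RPKM in WT (log2 difference 0.66 ± 0.07 (SE), limma adjusted p = 1.58e-06). It rose by 0.46 in Pad2-/- and by 0.60 in Pad4-/- spleens on the log2 scale.

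Rpl41 went from 2355, 2142 and 2273 RPKM to 3902, 4381 and 3761 RPKM in WT spleens (log2 difference 0.83 ± 0.13 (SE), limma adjusted p = 2.66e-05). Its log2 difference was 0.61 in Pad2-/- and 0.78 in Pad4-/- spleens, past the threshold as well, but not after quantile normalization (0.19 and 0.48, limma adjusted p = 0.493 and 0.0862). It has the shortest coding sequence among the cytosolic ribosomal proteins. Its transcript matched to GENCODE M21 has 582 bases, where those of members run from 345 to 3706 bases with a median of 761.

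Rpl36al, the relative of Rpl36a, rose in WT spleen from 335, 308 and 334 RPKM to 511, 512 and 493 RPKM (log2 difference 0.63 ± 0.10 (SE), limma adjusted p = 3.22e-05), though its difference was -0.0046 after quantile normalization. It rose by 0.40 in Pad2-/- and by 0.76 in Pad4-/- spleens, where quantile normalization gave -0.10 and 0.20, neither of them a rise past the threshold. Its partner Rpl36a did not pass in any genotype, with log2 differences of 0.06, -0.09 and 0.30. Rpl36al thus stood at 37.0 to 41.9% of Rpl36a RPKM in the 9 control spleens and at 50.2 to 63.7% in the 9 imiquimod spleens, with no overlap.

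Rpl22l1, the relative of the RNA-binding large-subunit protein Rpl22, stood at 111 to 133% of Rpl22 RPKM over all spleen libraries, with overlap of control and imiquimod. Neither passed in WT (log2 differences 0.17 and 0.10) or Pad2-/- spleens (-0.07 and -0.05), and both rose in Pad4-/- spleens (0.45 and 0.41). Rpl7l1, a relative of Rpl7, rose in WT (log2 difference 0.41 ± 0.06 (SE), limma adjusted p = 3.2e-05) while Rpl7 did not pass (0.12). In Pad4-/- spleens Rpl7 rose (0.41) while Rpl7l1 did not pass (0.10). Rpl7l1 thus went from 3.05 to 3.16% of Rpl7 RPKM in WT controls to 3.48 to 4.33% after imiquimod. In Pad4-/- spleens it went from 3.64 to 3.68% down to 2.84 to 3.01%, and in neither genotype did the groups overlap. The rises of Rpl22, Rpl22l1 and Rpl7 in Pad4-/- and of Rpl7l1 in WT did not hold under all 5 scalings given below.

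Among the falls in WT, Rpl12, a large-subunit protein at the base of the stalk, went from 2749, 2591 and 2673 RPKM to 2044, 2115 and 1891 RPKM (log2 difference -0.41 ± 0.12 (SE), limma adjusted p = 0.0073). It fell in Pad2-/- spleens as well (-0.50, limma adjusted p = 0.00179), but there the groups overlapped, and the fall was lost without the 2 haemoglobin-rich libraries (-0.16, limma adjusted p = 0.239). Its log2 difference in Pad4-/- spleens was -0.07. Rps21, a small-subunit protein, fell in WT (-0.34) and Pad2-/- spleens (-0.45) and was at 0.02 in Pad4-/- spleens, a value that turned negative under 3 scalings (-0.38, -0.26 and -0.23). The WT fall of Rps21 missed the threshold with no filter on low values and without replicate 3 of either group (limma adjusted p = 0.0537, 0.0689 and 0.0901), and its Pad2-/- fall with only the groups compared (0.0731) and without the 2 haemoglobin-rich libraries (-0.15, limma adjusted p = 0.382). Rpl5, which binds 5S rRNA and MDM2 together with Rpl11, fell in WT (-0.28) and Pad2-/- spleens (-0.36).

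The stalk proteins did not move as one. Rplp0, which anchors the stalk, rose in WT, Pad2-/- and Pad4-/- spleens, with log2 differences of 0.44, 0.27 and 0.49 (limma adjusted p = 0.000181, 0.00844 and 9.21e-05), from 1617, 1491 and 1498 RPKM to 2056, 2029 and 2173 RPKM in WT. When libraries were scaled to the summed RPKM of all other genes, leaving out members and haemoglobin, its difference was -0.047 in Pad2-/- and did not pass in WT (0.08, limma adjusted p = 0.302). After quantile normalization it did not pass in Pad2-/- (0.13, limma adjusted p = 0.112) or Pad4-/- (0.14, limma adjusted p = 0.109), and with only the groups compared not in Pad2-/- (limma adjusted p = 0.137). Rplp1 (0.05, -0.13 and 0.23) and Rplp2 (0.08, 0.03 and 0.10) did not pass in any genotype as deposited, and the sign of both changed with the scaling.

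Of the well-known single members, Rps6, the substrate of the S6 kinases, had log2 differences of 0.12 in WT, 0.03 in Pad2-/- and 0.36 in Pad4-/- spleens and passed, as a rise, in the last. The same held for Rps14 (-0.14, -0.24 and 0.35), Rps25 (0.09, -0.05 and 0.29), Rpl11 (0.22, 0.01 and 0.33) and Rps27a, which is made as a fusion with ubiquitin (0.19, 0.07 and 0.45). None of these Pad4-/- rises held under all 5 scalings given below. The difference between genotypes in these responses did not pass a test for any member, as given below. Rps3, Rps19, Rpl38 and Rpl13a did not pass in any genotype. Rps19 and Rpl11 are known from Diamond-Blackfan anaemia in humans, and Rpl13a from interferon-induced translational silencing in human cells.

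**Figure D2:**
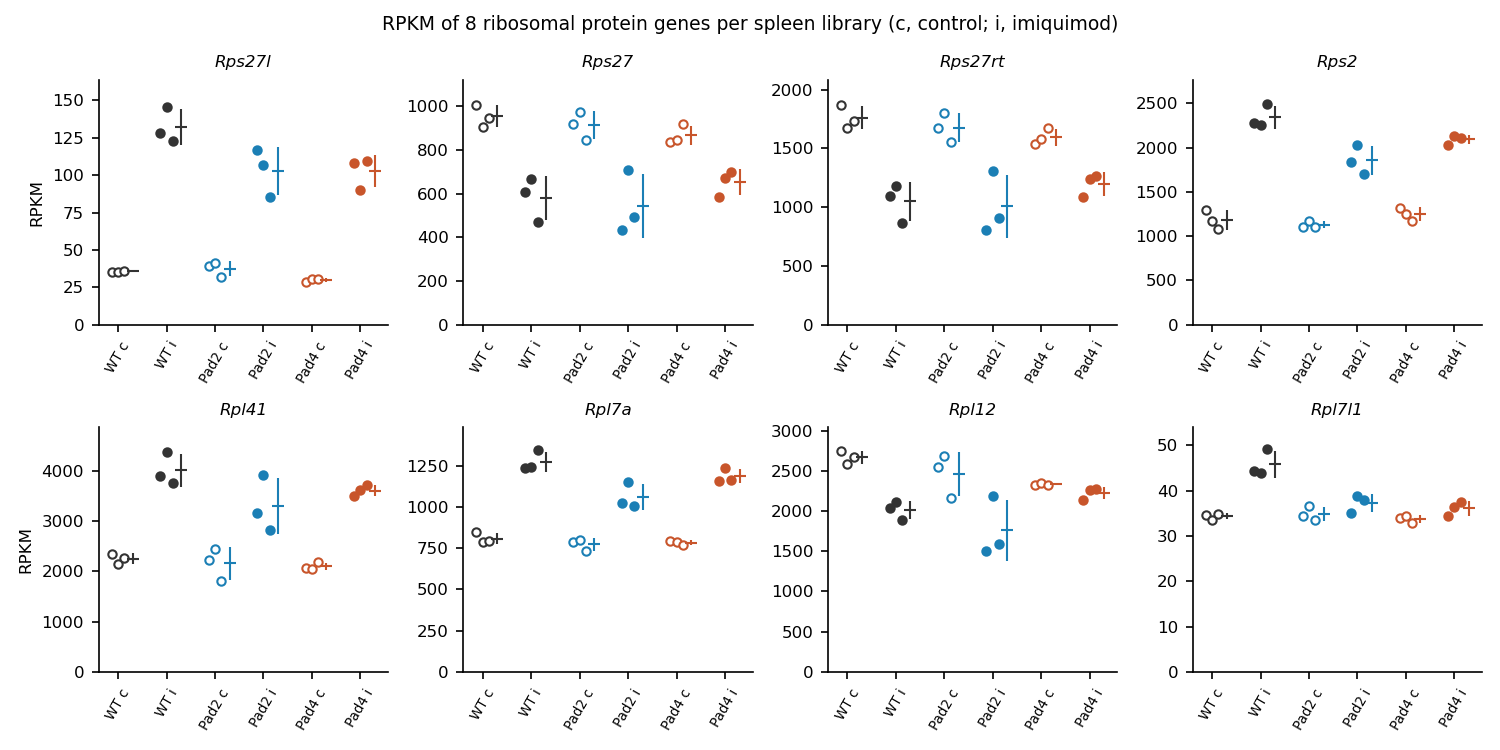
RPKM of 8 members in each spleen library (points; open, control; filled, imiquimod), with group mean and SD beside them (n = 3). Rps27l, Rps2, Rpl41 and Rpl7a are higher in every imiquimod library than in the controls of the same genotype, Rps27 and Rps27rt are lower in every one, and Rpl7l1 stands at 43.9 to 49.2 RPKM in WT imiquimod spleens, above all other groups.

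In Pad2-/- spleens 12 members rose and 11 fell (5 and 51 after quantile normalization), where 36.3% of all genes rose and 36.7% fell, 73.0% together, and the median difference of members was -0.06 beside -0.02 for all genes on the log2 scale. Control and imiquimod groups did not overlap for 14 members, against 75.6% of all genes, with 12 higher and 2 lower, against 37.2 and 38.4%. The counts turned on imiquimod replicate 2, the one poor in haemoglobin mRNA. Without it 10 members rose and 35 fell, where 34.8% of all genes rose and 39.2% fell. With it as the lone imiquimod library 28 rose and 0 fell, where 32.6% of all genes rose and 24.98% fell, with a median difference of 0.21. In the latter fit the lone library was assumed to vary like the other groups. Haemoglobin mRNA, which was high in replicates 1 and 3, moved with this split, and its part in it was not tested.

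In Pad4-/- spleens 48 members rose and 2 fell (6 and 23 after quantile normalization), where 33.9% of all genes rose and 36.1% fell, 70.0% together, and the median difference of members was 0.30 beside -0.04 for all genes. Of the large-subunit members 32 rose and 0 fell of 50, and of the small-subunit ones 16 rose and 2 fell of 33. Control and imiquimod groups did not overlap for 73 members, against 77.1% of all genes, and 70 of these were higher and 3 lower after imiquimod, against 37.6 and 39.5% of all genes. Library medians of Pad4-/- controls (9.96 to 9.97) lay below those of WT controls (10.12 to 10.18), while Pad2-/- controls (9.88 to 10.19) spanned both.

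**Figure D3:**
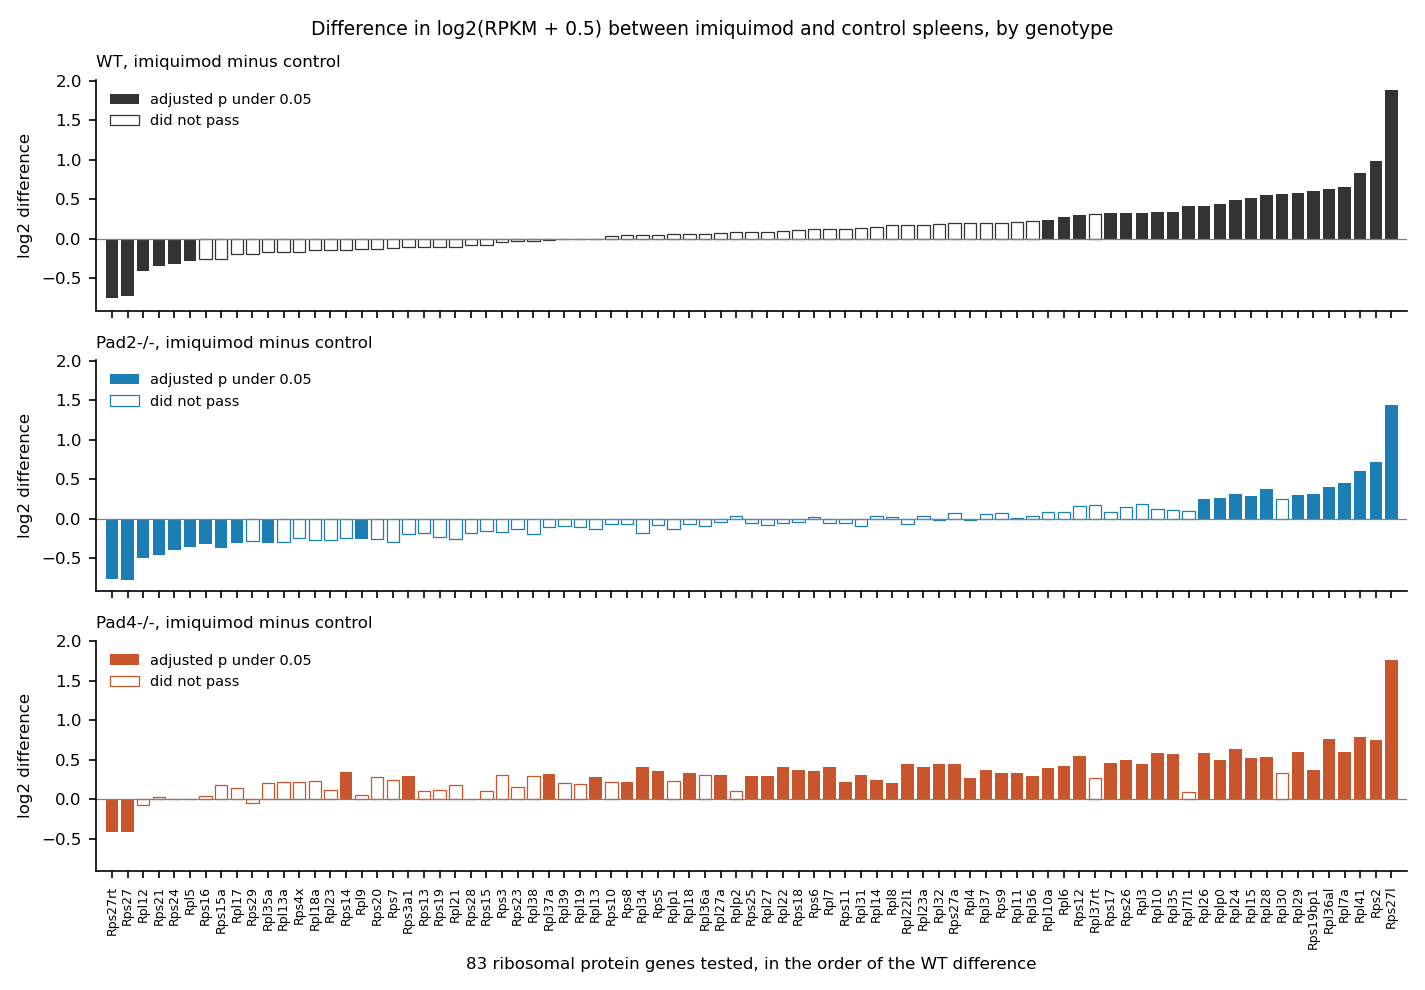
Difference in log2(RPKM + 0.5) between imiquimod and control spleens for the 83 members tested, in WT, Pad2-/- and Pad4-/- (bars; filled where the adjusted p was under 0.05), ordered by the WT difference. Rps27rt and Rps27 are at the low end and Rps27l at the high end in each genotype, and most Pad4-/- bars lie above 0, with 48 that rose and 2 that fell.

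The 3 responses share no library. Across the 83 members their differences correlated with r = 0.99 between WT and Pad2-/-, 0.91 between WT and Pad4-/- and 0.91 between Pad2-/- and Pad4-/- (Spearman's rho 0.98, 0.83 and 0.81), which is across genes that share the same libraries and is no test. In all 3 responses 12 members rose, namely Rps27l, Rps2, Rpl41, Rpl7a, Rpl36al, Rplp0 and Rps19bp1 and, named after their values were seen, Rpl15, Rpl24, Rpl26, Rpl28 and Rpl29. Both Rps27 and Rps27rt fell in all 3, 22 members passed in none, and 0 rose in 1 response and fell in another. In WT, Pad2-/- and Pad4-/- taken singly, 40.3, 36.3 and 33.9% of all genes rose and 33.2, 36.7 and 36.1% fell. How many of all genes rose or fell in all 3 was not counted. The counts of members are therefore not read as particular to them.

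How the libraries are put on 1 scale changed the balance of rises and falls. Quantile normalization moved the median of all genes to -0.13, -0.13 and -0.12 in WT, Pad2-/- and Pad4-/- spleens, and scaling to the RPKM of all genes other than members and haemoglobin to -0.27, -0.31 and -0.29. Under the first, 8 members rose and 46 fell in WT (32.3% of all genes rose and 77.3% passed in either direction), 5 and 51 in Pad2-/- (31.2 and 76.0%), and 6 and 23 in Pad4-/- spleens (29.2 and 72.7%). Under the second, 8 rose and 50 fell in WT, where 26.5% of all genes rose and 50.7% fell. In Pad2-/- spleens 4 rose and 64 fell (24.3% of all genes rose and 52.9% fell). In Pad4-/- spleens 16 rose and 11 fell (23.2% of all genes rose and 51.4% fell). In either direction 77.2, 77.2 and 74.5% of all genes passed under the second.

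Relative to the median of all genes, the member median lay close to 0 in WT under these scalings. It was 0.02 as deposited, -0.06 after quantile normalization and -0.0037 when scaled to all other genes. In Pad2-/- spleens it was -0.04, -0.08 and -0.07. In Pad4-/- spleens it was 0.33 as deposited, 0.34 by median-ratio scaling and 0.31 when scaled to all other genes, but 0.02 after quantile normalization, which gives every library the same distribution and so equalises the top of it, where most members lie. Under all 5 scalings and in all 3 genotypes, Rps27l, Rps2 and Rpl7a rose and Rps27 and Rps27rt fell.

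**Figure D4:**
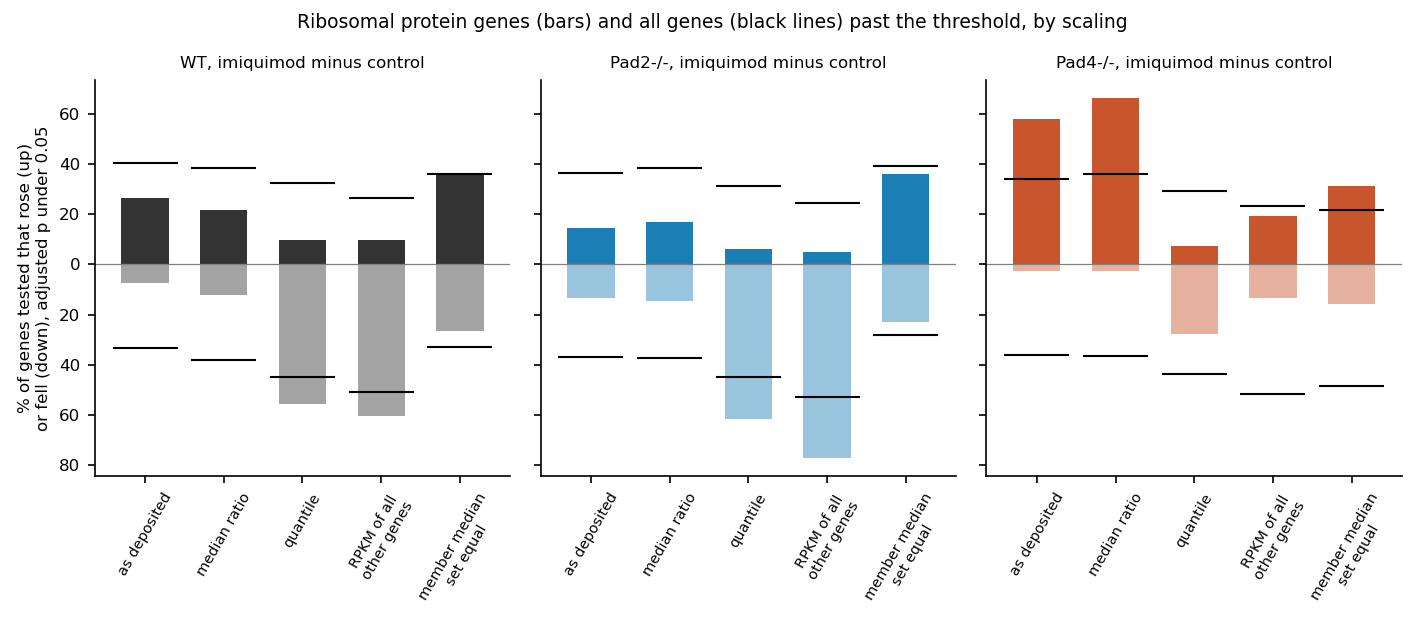
Share of the 83 members (bars) and of all 11982 genes (black lines) that rose (up) or fell (down) after imiquimod in spleen, in %, under 5 scalings of the libraries. The Pad4-/- excess of rises, 48 as deposited, goes to 6 after quantile normalization, and the WT falls go from 6 to 46.

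Other genes of the ribosome and of translation were counted from lists. Of all genes, 40.3% rose and 33.2% fell in WT, 36.3 and 36.7% in Pad2-/- and 33.9 and 36.1% in Pad4-/- spleens. When scaled to all other genes, 26.5% rose and 50.7% fell in WT, 24.3 and 52.9% in Pad2-/- and 23.2 and 51.4% in Pad4-/-. List counts near these shares are not read as responses of the list. Among cytosolic ribosome genes that the symbol rule leaves out, Rack1, a scaffold protein on the small subunit, rose in WT spleen (log2 difference 0.23), and Rack1 and Rpsa, a small-subunit protein, rose in Pad4-/- spleen (0.33 each). Of 4 such genes 1 rose and 0 fell in WT, 0 and 1 in Pad2-/- and 2 and 0 in Pad4-/- spleens as deposited. After quantile normalization 0 rose in any genotype, and 3, 3 and 2 fell. When scaled to all other genes 0 rose as well, and 3, 4 and 1 fell. By median-ratio scaling 0 rose and 1 fell in WT. Genes of the mitochondrial ribosome, which translates the mitochondrial genome, did otherwise. Of 78 such genes 75 rose and 0 fell in WT, 65 and 0 in Pad2-/- and 65 and 0 in Pad4-/- spleens, with medians of 0.67, 0.43 and 0.46, among them Mrpl18 (1.25, 0.97 and 0.98) and Mrpl13 (1.19, 0.84 and 0.98). When scaled to all other genes 53, 29 and 37 of them rose and 2, 8 and 4 fell.

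Of 28 translation initiation genes 26 rose in WT, 24 in Pad2-/- and 22 in Pad4-/- spleens and 0 fell, with medians of 0.68, 0.46 and 0.39. When scaled to all other genes 19, 12 and 11 rose and 2, 1 and 1 fell. The highest of those named was Eif5a (1.47, 1.15 and 0.91), which carries hypusine and helps the ribosome past difficult peptide bonds. Of 19 other translation genes with TOP mRNAs 14, 11 and 14 rose and 2, 2 and 1 fell, with medians of 0.52, 0.29 and 0.46. Eif3k (0.73, 0.61 and 0.67) and Eif3l (0.85, 0.58 and 0.61), subunits of the initiation factor eIF3, were among the rises, and the RNA helicase gene Eif4a2 fell in WT (-1.23) and Pad2-/- spleens (-1.27). After quantile normalization 3, 2 and 4 of these 19 rose and 4, 7 and 3 fell.

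Of 78 ribosome biogenesis genes 41 rose and 4 fell in WT, 20 and 13 in Pad2-/- and 14 and 18 in Pad4-/- spleens, with medians of 0.31, 0.02 and -0.05. When scaled to all other genes the falls outnumbered the rises in each genotype (15 and 26, 6 and 41, 2 and 45). Nhp2, of the box H/ACA small nucleolar particle that directs pseudouridylation (1.39, 1.09 and 0.97), and Mrto4, an assembly factor of the stalk (1.53, 1.09 and 0.82), rose in all 3. Of 19 RNA polymerase I and rDNA genes 8, 5 and 6 rose and 2, 4 and 4 fell, but 4, 3 and 4 rose and 8, 11 and 10 fell when scaled to all other genes. Of 17 mTOR pathway genes 7, 6 and 3 rose and 7, 9 and 9 fell, and on the latter scale 1, 2 and 1 rose and 10, 11 and 12 fell. Eif4ebp1, the translational repressor released by mTOR phosphorylation, rose (1.96, 1.85 and 1.69), and the kinase gene Rps6ka3 fell (-0.88, -0.86 and -0.77).

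Of 10 long noncoding RNA genes that host small nucleolar RNAs, most with TOP transcripts, 5, 3 and 1 rose and 2, 1 and 2 fell, but 1, 0 and 1 rose and 4, 5 and 5 fell when scaled to all other genes. Zfas1 rose (0.55, 0.41 and 0.62) and Snhg17 fell (-0.83, -0.87 and -1.06). Of 10 genes of the MYC network 4 rose in each genotype and 3, 2 and 1 fell (5, 5 and 6 when scaled to all other genes, where 4 rose), and the largest rise of those named was that of Mxd3, a MAX-binding repressor (3.39, 2.87 and 3.05). Mitotic genes, with which Mxd3 is known to rise, summed to 46.4 to 51.1 RPKM in control and 361 to 595 RPKM in imiquimod spleens of Pad2-/-, and to 28.1 to 34.1 and 368 to 380 RPKM in those of Pad4-/-.

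**Figure D5:**
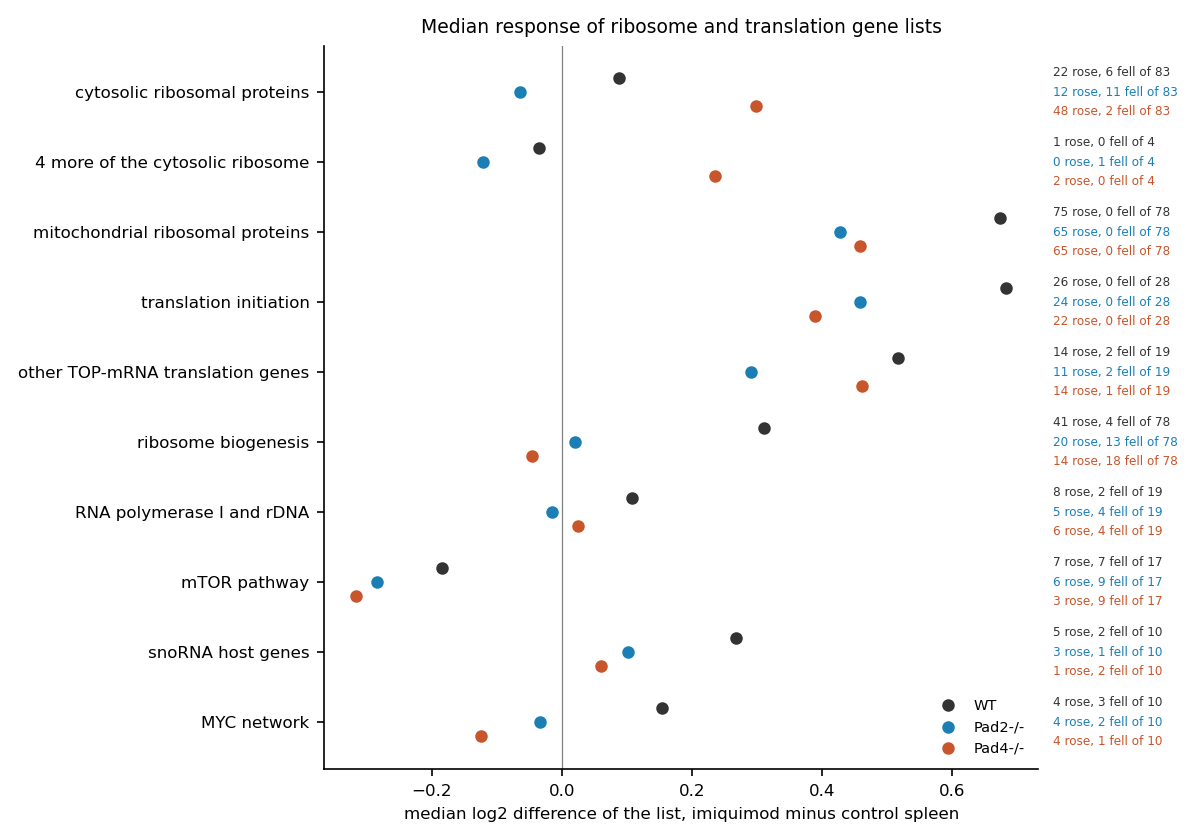
Median log2 difference, imiquimod minus control spleen, of the cytosolic ribosomal protein genes and of 9 other gene lists in WT, Pad2-/- and Pad4-/- (points), with the number of genes that rose and fell at the right. Mitochondrial ribosomal protein and initiation genes have medians of 0.39 to 0.68 in the 3 genotypes, where the cytosolic ribosomal protein genes have 0.09, -0.06 and 0.30.

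Between genotypes, few differences of members passed. In control spleens 0 members passed for Pad2-/- against WT, where 0.142% of all genes did (0.108% rose and 0.0334% fell), and 0 had an unadjusted p under 0.05 in limma. The median difference of members was -0.08 on the log2 scale. Groups did not overlap for 2 members, both lower in Pad2-/-, against 15.3% of all genes, 11.4% higher and 3.93% lower. For Pad4-/- against WT control spleens 0 passed, where 0.150% of all genes did (0.0501% rose), with 14 at an unadjusted p under 0.05 in limma. Their median difference was -0.20 on the log2 scale and that of all genes 0.05. After quantile normalization the median of members was -0.07. In 66 members all Pad4-/- controls lay below all WT controls, against 10.6% of all genes, and in 0 above, against 25.3%, so that 35.9% of all genes separated. This separation was counted on the deposited scale only. With only these groups in the fit 47 members fell, where 3.96% of all genes did, and with array weights by limma's gene-by-gene estimate 37 fell, where 3.24% of all genes did. Markers also separated these groups: from WT to Pad4-/- controls, summed RPKM went from 715 to 1178 down to 376 to 558 for neutrophil markers, from 245 to 260 down to 186 to 211 for NK cell markers, and from 903 to 932 up to 1029 to 1134 for T cell markers. Their part in the difference was not tested. The comparison shares its WT controls with that of Pad2-/-.

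In imiquimod spleens 0 members passed for Pad2-/- against WT, where 0.484% of all genes did (0.150% rose and 0.334% fell), with 35 at an unadjusted p under 0.05 in limma. Every one of the 83 members was below 0, from -0.37 to -0.08 with a median of -0.23 on the log2 scale, beside -0.06 for all genes. Of all 11982 genes 4157 lay above 0. Members moved together within groups, so their shared sign is not a set of separate observations. Groups did not overlap for 19 members, all lower in Pad2-/-, against 9.62% of all genes lower and 1.59% higher, 11.2% together. Without the haemoglobin-poor Pad2-/- replicate 2, 55 members fell, where 4.15% of all genes did, and with it alone 0 passed, where 0.227% of all genes did, and the median was 0.06. Haemoglobin mRNA moved with this difference, and its part in it was not tested.

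For Pad4-/- against WT imiquimod spleens 1 member fell, where 7.27% of all genes passed (1.58% rose and 5.69% fell). This was Rpl7l1, at 44.4, 43.9 and 49.2 RPKM in WT, 35.2, 38.9 and 37.9 RPKM in Pad2-/- and 34.4, 36.4 and 37.5 RPKM in Pad4-/- imiquimod spleens, with neither knockout overlapping WT. Its difference was -0.34 ± 0.06 (SE) on the log2 scale for Pad4-/- (limma adjusted p = 0.00963) and -0.29 for Pad2-/- (limma adjusted p = 0.0502). The Pad4-/- call was lost when scaled to all other genes (limma adjusted p = 0.0749) or to the member median (0.0749), and with only these groups in the fit (0.289). The median of all members in this comparison was 0.03. Groups did not overlap for 18 members, 9 higher and 9 lower, against 19.2% of all genes in either direction and 5.20% higher.

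Over the same comparison, 26 of 78 mitochondrial ribosomal protein genes, 8 of 28 initiation genes and 19 of 78 biogenesis genes were lower in Pad4-/- than in WT, and 0 of each were higher. When scaled to all other genes 1, 2 and 0 were lower, and when scaled to the member median 3, 0 and 1. Examples as deposited are Mrpl12 (-0.51), Eif4a1 (-0.48) and Nhp2 (-0.56). Mitotic genes summed to 368 to 380 RPKM in Pad4-/- and to 422 to 546 RPKM in WT imiquimod spleens, and their part was not tested. Of the mitochondrial genes 3 were lower in Pad2-/-, a comparison that shares the WT libraries.

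The imiquimod responses themselves did not differ by test in any member. For Pad2-/- minus WT 0 members passed, where 0.0334% of all genes did (0.00835% rose and 0.0250% fell), with a median of -0.14 on the log2 scale and 4 at an unadjusted p under 0.05 in limma. For Pad4-/- minus WT 0 passed, where 0.0668% of all genes did (0.0501% rose and 0.0167% fell), with a median of 0.21, beside -0.08 for all genes, and 8 at an unadjusted p under 0.05. The smallest limma adjusted p there was 0.145, for Rpl7l1. In Pad4-/- minus WT 74 of 83 members lay above 0, as did 4259 of all 11982 genes. Since members moved together within groups, these signs are not separate observations.

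In lymph nodes, which had no untreated group, library medians of members were 9.93, 10.26, 10.29 and 10.52 in WT, 10.25, 10.42, 10.11 and 10.18 in Pad2-/- and 10.65, 10.40, 10.69 and 10.28 in the libraries labelled Pad4-/-, with overlap of all groups. For Pad2-/- against WT 0 members passed, where 0.464% of all genes did (0.407% rose and 0.0570% fell), the median difference was 0.03, and 0 had an unadjusted p under 0.05 in limma. For the libraries labelled Pad4-/- against WT 0 passed, where 0.00814% of all genes did, and 1 had an unadjusted p under 0.05 in limma. Both comparisons share the WT libraries. All 84 members were above 0 in the latter, as were 6218 of all 12285 genes. The median of members was 0.24, and it was 0.21 without replicates 3 and 4 labelled Pad4-/-. In 0 members did the groups separate in either comparison, against 6.99 and 3.01% of all genes.

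Single members varied among lymph nodes of 1 group as well. Rps27 stood at 478, 745, 882 and 1053 RPKM in WT, at 878, 935, 557 and 845 RPKM in Pad2-/- and at 986, 878, 1310 and 812 RPKM in the libraries labelled Pad4-/-. Rps27l stood at 86.8 to 94.2 RPKM in WT and lay above that range in Pad2-/- replicate 3. Of the Rps27 row alone it amounted to 8.63 to 14.1% in 10 libraries. It amounted to 19.7% in WT replicate 1 and 23.9% in Pad2-/- replicate 3, the 2 libraries lowest in Rps27. These 2 libraries were also low in T cell markers, at 744 and 704 RPKM in sum, and high in plasma cell markers, at 3711 and 6300 RPKM, against 749 to 1264 and 1527 to 3695 RPKM in the others. The margins to the next library, Pad2-/- replicate 4, were small for WT replicate 1. The part of cell makeup in this was not tested.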

How the data were processed

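RNA from frozen spleen and lymph node was poly(A)-enriched and made into NEBNext Ultra II libraries, per the labels' protocols. Per the submitters' processing notes, bcl2fastq 1.17.1, TopHat2 2.1.0 and the build mm10 were used; the counter, the annotation and the handling of reads with several matches were not given in the sources used here. Per tissue, the authors deposited 1 table of RPKM, whose very small non-zero numbers do not step by whole reads. Read depth could therefore not be had, nor intervals for counting error.

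A gene was tested where 3 libraries of spleen, or 4 of lymph node, reached 1 RPKM (11982 and 12285 genes). All groups of a tissue entered 1 fit of log2(RPKM + 0.5) in limma 3.58.1 (R 4.3.3, eBayes with trend), two-sided, with Benjamini-Hochberg adjustment across every gene of the table and a threshold of 0.05. "Rose", "fell" and "passed" refer to it. On this scale the change of low genes is understated. The script was tested on simulated data. Tissues were not tested against each other. Of the sample columns, 0 were left unused.

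The members and lists were chosen with earlier results of these data known. Genes named are relatives of other members and their partners, the stalk genes, 11 members of known role, the 4 largest rises and falls per comparison, and up to 3 genes of smallest p per list. Alternatives were the pseudocount, the filter, 3 other scalings, array weights, a replicate block, fitting only the groups compared and leaving out each library. Scaling to the member median, leaving out 2 haemoglobin-rich libraries and a second estimate of array weights were added after seeing the data. One gene of the lists is not reported here.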

Additional observations from a re-analysis of the deposited data

How the results depend on the processing

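Depth is unknown, groups hold 3 or 4 libraries, and members share reads with copies elsewhere in the genome, so single values are uncertain by an amount that was not tested. Counts of members past the threshold changed with the scaling, with array weights and with single libraries. Quantile normalization gave 54 in WT, 56 in Pad2-/- and 29 in Pad4-/- for imiquimod against control spleens, and scaling to all other genes (without haemoglobin) gave 58, 68 and 27, against 28, 23 and 50 as deposited. Scaling to the member median, added after seeing the data, gave 52 and 49 in WT and Pad2-/-, where 69.0 and 67.0% of all genes passed. With only the groups compared, the Pad2-/- response gave 9, where 68.9% of all genes passed. In such a fit Pad4-/- against WT controls gave 47, where 13.8% of all genes passed. Array weights by REML did not converge in spleen and gave Pad2-/- imiquimod replicate 3, rich in haemoglobin, a weight of 59.0 where every other spleen library had at most 2.48. They gave 70 for the Pad2-/- response, 40 for Pad4-/- against WT controls, 70 for Pad2-/- against WT imiquimod spleens, and 29 and 1 for the Pad2-/- and Pad4-/- difference of responses, where 88.3, 14.7, 22.96, 14.5 and 5.55% of all genes passed. The gene-by-gene estimate, added after seeing this, gave that library 3.60 and counts of 60, 37, 19, 2 and 0, where 82.5% of all genes passed for the first, 8.47% for the third and 3.44 and 3.05% for the last. Pad2-/- against WT imiquimod spleens gave 1 with a pseudocount of 1 and 1 with no filter. Pad4-/- against WT imiquimod spleens gave 0 when scaled to all other genes, to the member median or with only the groups compared. The other causes were not tested.

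Leaving out 1 library at a time, the counts ranged from 22 to 26 for the response of WT, 17 to 45 for that of Pad2-/-, 34 to 41 for that of Pad4-/-, 0 to 55 for Pad2-/- and 1 to 1 for Pad4-/- against WT imiquimod spleens, and 0 to 1 for the Pad4-/- difference of responses. The count of 45 and that of 55 came without Pad2-/- imiquimod replicate 2, with the shares of all genes given above. With all libraries, 73.5, 73.0 and 70.0% of all genes passed for the responses of WT, Pad2-/- and Pad4-/-. Against WT imiquimod spleens 0.484% passed for Pad2-/- and 7.27% for Pad4-/-, and 0.0668% passed for the Pad4-/- difference of responses. The other comparisons stayed at 0 to 0.

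Signs of log2 differences that turned with a setting were as follows. After quantile normalization, Rpl36al was -0.0046 in WT and -0.10 in Pad2-/-, Rplp1 -0.55 in WT and -0.45 in Pad4-/-, Rplp2 -0.15, -0.089 and -0.33 in the 3 genotypes, and Rps21 -0.38 in Pad4-/-. Scaled to all other genes, Rplp1 was -0.31 in WT and -0.045 in Pad4-/-, Rplp2 -0.28, -0.28 and -0.18, Rplp0 -0.047 in Pad2-/- and Rps21 -0.26 in Pad4-/-. Scaled to the member median, Rplp1 was -0.014, Rplp2 -0.15 and Rps21 -0.23 in Pad4-/-. Rplp1 in WT was -0.0078 by median-ratio scaling. In Pad2-/-, Rplp1 was 0.17 without the 2 haemoglobin-rich libraries, and Rplp2 was -0.033 and -0.025 with array weights by REML and gene by gene and -0.091 to 0.125 leaving out 1 library, lowest without imiquimod replicate 2.

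Deviations of same-numbered libraries from their group means correlated from -0.48 to 0.61 in spleen (median 0.05), with 14 of 45 pairs over 0.1. Differently numbered libraries ran from -0.60 to 0.64 (median -0.01), with 17 of 90. In lymph node same-numbered libraries ran from -0.30 to 0.39, with 5 of 12 over 0.1, and the others from -0.54 to 0.56, with 12 of 36. With group means taken from 3 or 4 libraries, these values cannot decide whether the numbers pair libraries. The main fit took no account of the numbers. With the replicate number as a block, the counts were 30, 29 and 53 for the 3 responses, 1 for Pad4-/- against WT imiquimod spleens and 0 in the other comparisons. Without the block, 73.5, 73.0 and 70.0% of all genes passed for the 3 responses and 7.27% for Pad4-/- against WT imiquimod spleens.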
